A study of Homo sapiens with 15 samples.

Results

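The ATF4 and amino acid stress response was described as 44 named genes among the 20806 gene entries measured in C4-2 cells, a line descended from LNCaP that models castration-resistant prostate cancer. Members were found by symbol in the deposited count tables. Each of the 44 stood on 1 entry, and all 44 passed the filter on low counts, which kept 14246 genes. Poly(A) RNA had been sequenced from 5 lines with 3 libraries each, and the titles number the libraries of every line 1, 2 and 3. Of these lines, 4 are labelled as knockouts of PNPLA2, which encodes adipose triglyceride lipase (ATGL). RNA of that gene was still counted in KO, at a lower level than in Scramble. In 3 of them an ATGL protein was added back: wild-type ATGL (KO_WT), the S47A mutant that is described as lipolytically inactive (KO_S47A) and the S404A mutant (KO_S404A). The fourth carried the knockout alone (KO), and the control line carried a scramble construct (Scramble). All lines received the same medium, with 5 mM glucose and 5% dialyzed serum, and are described as isogenic. Each genotype is 1 line, whether a line is 1 clone is not stated, and nothing in the labels says that the 3 libraries came from separate cultures. What the library numbers mark is not given either, so p-values reflect how much these libraries vary, and that variation may be technical only.

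ATF4 is a transcription factor whose messenger RNA is translated more efficiently when kinases phosphorylate the initiation factor eIF2alpha, for example when uncharged tRNA, unfolded protein in the endoplasmic reticulum or mitochondrial stress is sensed. It pairs with C/EBP proteins and other basic leucine zipper factors and switches on genes that make amino acids, import them and charge them onto tRNA. It also switches on factors that damp the response or slow growth. In prostate cancer ATF4 is known to sustain growth and survival. Messenger RNA levels were measured here, and neither ATF4 protein nor eIF2alpha phosphorylation was.

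Counts in genes totalled 40846694 to 64345775 per library. The targeted gene gave, in CPM (counts scaled to the library total, corrected by TMM), 219.9 ± 18.1 in KO_WT, 129.2 ± 30.6 in KO_S47A, 413 ± 98.3 in KO_S404A, 11.3 ± 1.99 in KO and 48.9 ± 4.76 in Scramble (SD, n = 3 libraries each). All 10 luminal prostate markers were present, with KLK3, the gene of prostate-specific antigen, at 1830 to 3535 CPM. Of 13 markers of other cell types, CD3E, KRT5 and TP63 had no count in any library, and the summed level of the 13 was 30.3 to 42.2 CPM in the libraries numbered 3 and 35.6 to 53.4 CPM in those numbered 1 and 2. The highest of them were COL1A1 with 9.76 to 23.2 CPM, VWF with 5.06 to 14.7 CPM and CD68 with 7.12 to 11.0 CPM. PDGFRB had 2.48 to 5.13 CPM and SYP 2.66 to 4.44 CPM. KO_S404A library 2 lay at the end of the range in 2 technical measures. Its share of unassigned reads was 13.2%, with KO library 3 next at 15.5%, and its count-weighted gene length was 3886 bases, with KO library 1 next at 3827 bases.

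The 44 genes spanned a wide range of levels. Per kilobase of gene length and averaged over the 15 libraries, GDF15 and ATF4 stood highest, at 465 and 463 CPM per kilobase. The growth regulator EIF4EBP1 averaged 279 CPM per kilobase, the serine pathway enzyme PSAT1 277 and the transporter subunit SLC3A2 184, and each was the highest member of its role. The tRNA exporter XPOT and the seryl-tRNA synthetase SARS were level at 199 CPM per kilobase. At the low end of their roles were the regulator JDP2 with 8.59, the phosphatase subunit PPP1R15A with 3.55, the transporter SLC1A4 with 4.83, the tryptophanyl-tRNA synthetase WARS with 45.4, the hormone FGF21 with 2.10 and the mitochondrial folate enzyme ALDH1L2 with 0.0971 CPM per kilobase. FGF21 and ALDH1L2 were the sparsely counted members, with as few as 1 and 14 counts in a library. The lowest count of any of the other 42 was 243.

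Promoter sequences are shown because the members moved together and because ATF4 with a C/EBP partner binds a composite element. The element was searched as TGATGNAA on either strand (TTNCATCA on the other) in RefSeq windows of GRCh38.p14 that reach from 250 bases before a gene start to 50 bases after it. Windows were held for 37 of the 44 members, 15 of which have several starts, and not for PSPH, SHMT2, ALDH1L2, SLC7A11, NUPR1, YARS and EIF4EBP1. A match was found for 16 of these 37, or 43.2%, against 319 of 11229 tested genes, or 2.84%. Counted by window, the shares were 28.6% of 56 member windows and 2.08% of 16372 windows of tested genes. The members were listed as genes of the ATF4 response, so a higher share among them can follow from the listing, and it was not tested. By role, matches were found for 6 of 10 genes of tRNA charging and export, 4 of 7 transporters, 3 of 6 regulators, 1 of 4 feedback genes, 1 of 7 synthesis genes and 1 of 3 secreted factors. The 8 stretches below are 30 bases each from before a start of the gene. They run 5′ to 3′ on the gene's own strand, with the match in capitals. They are all the matches whose whole stretch lies before the start of their window, and they cover every role and both orientations. ATF3, CEBPG, ASNS, SLC1A5 and GARS have several starts, and a match was found in the window of only 1 start each. For CEBPG, SLC1A5 and GARS this start lies downstream of any other start of the gene.
ATF3: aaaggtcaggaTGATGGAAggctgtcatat
CEBPG: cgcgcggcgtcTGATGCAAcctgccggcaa
CHAC1: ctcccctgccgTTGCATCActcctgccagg
ASNS: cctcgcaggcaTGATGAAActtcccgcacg
SLC1A5: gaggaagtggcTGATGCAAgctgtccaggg
GARS: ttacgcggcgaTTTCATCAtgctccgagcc
AARS: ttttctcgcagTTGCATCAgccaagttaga
FGF21: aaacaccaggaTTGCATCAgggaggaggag

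These stretches lie at chr1:212565205-212565234 (plus strand) for ATF3, chr19:33374060-33374089 (plus) for CEBPG, chr15:40953251-40953280 (plus) for CHAC1 and chr7:97872458-97872487 (minus) for ASNS. The others lie at chr19:46784893-46784922 (minus) for SLC1A5, chr7:30594834-30594863 (plus) for GARS, chr16:70289675-70289704 (minus) for AARS and chr19:48755459-48755488 (plus) for FGF21. The GARS stretch is the nearest to its start, 44 to 15 bases before it, and the CHAC1 stretch the farthest, 220 to 191 bases before it. CEBPG, CHAC1, SLC1A5, AARS and FGF21 share the same 8 letters, read in CEBPG and SLC1A5 on the gene's strand and in the other 3 on the opposite one. A match is a string of letters and not a measured binding site.

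The 44 members differed most between library numbers. All 44 were lower in the 5 libraries numbered 3 than in the 10 numbered 1 and 2, in a model with line and number (edgeR quasi-likelihood test, adjusted p 0.00754 or smaller for each). This contrast was chosen with earlier results of these data known, so its p-values are not those of a contrast set in advance. The median log2 difference was -1.12, against -0.02 for all tested genes, and members ran from -3.82 for FGF21 to -0.55 for the cysteine pathway enzyme CBS. Lower calls made up 23.1% of all tested genes in this contrast and calls in either direction 45.3%, so the contrast was broad and the members were at its lower side throughout. Any difference among the 3 numbers was called for all 44 members too, against 37.7% of genes. For 40 of the 44 every library numbered 3 lay below every library numbered 1 or 2, a pattern that 5.35% of tested genes showed. The 4 exceptions were ALDH1L2, CBS, DDIT3 and GDF15. Library 3 was the lowest of its own line in all 5 lines for 43 members, ALDH1L2 being the exception, against 15.4% of tested genes. Between numbers 2 and 1 no member was called, and none had an unadjusted edgeR p under 0.05; of all tested genes 0% were called and 2.8% passed unadjusted.

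**Figure D1:**
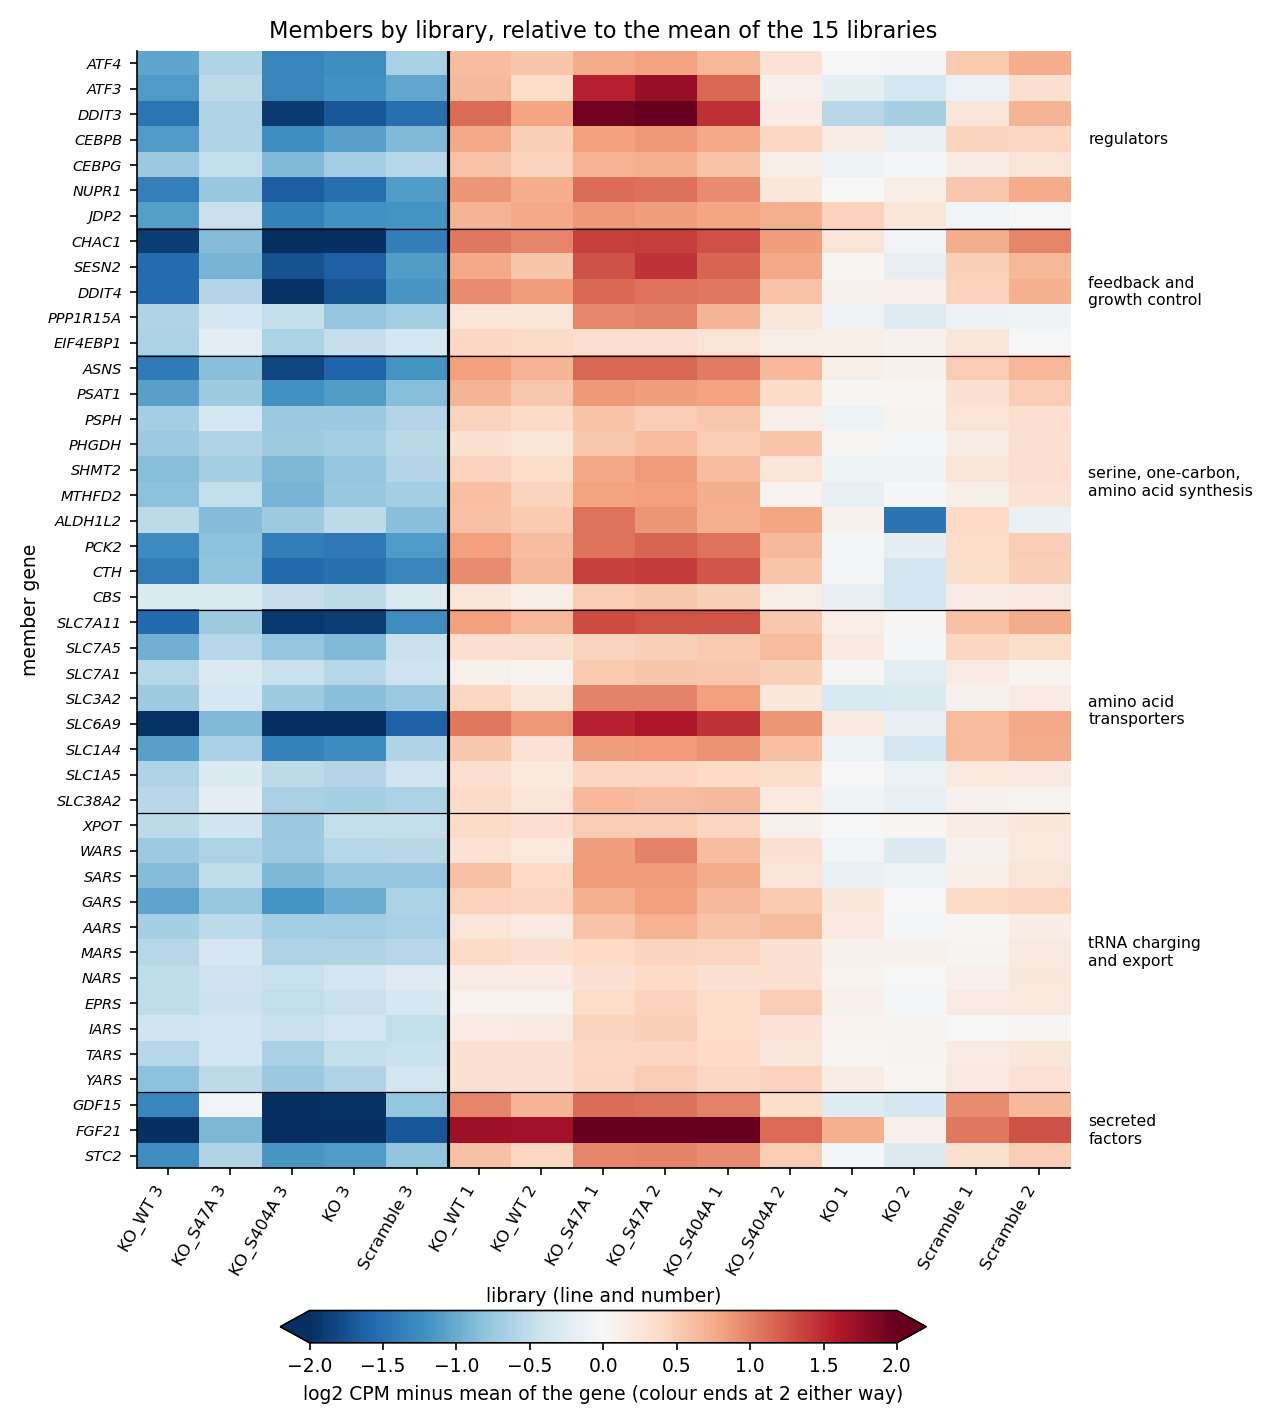
Level of each of the 44 members in each of the 15 libraries, as log2 CPM relative to the member's own mean over all libraries (colour), with members in rows grouped by role and libraries in columns, numbers 3 first and lines ordered KO_WT, KO_S47A, KO_S404A, KO and Scramble. The 5 columns of libraries numbered 3 are the low ones: for 40 of the 44 rows each of them lies below each of the other 10.

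The regulators, transcription factors that start or shape the response, had a median difference of -1.57, and all 7 fell. In what follows the 5 values for libraries numbered 3 are given in the order KO_WT, KO_S47A, KO_S404A, KO and Scramble. ATF4 had 419, 574, 351, 371 and 557 CPM in the libraries numbered 3, against 854 to 1523 CPM (median 1311) in those numbered 1 and 2. The 2 sets did not overlap, and ATF4 was 2.75-fold lower in number 3 (log2 difference -1.46, SE 0.09, edgeR adjusted p = 1.21e-07). NUPR1, a small stress-induced chromatin protein, had 109, 166, 89.1, 98.4 and 129 CPM in number 3, against 278 to 603 CPM (median 464), and was 3.77-fold lower. DDIT3 encodes CHOP, the C/EBP relative tied to cell death under prolonged stress. It had 15.2, 27.7, 11.1, 12.9 and 14.7 CPM in number 3, against 26.3 to 169 CPM (median 69.9), and was 4.47-fold lower (log2 difference -2.16, SE 0.24, edgeR adjusted p = 5.23e-06). Its sets overlapped because KO_S47A library 3 lay above KO library 2. ATF3, a repressor that ATF4 induces, had 22.5, 34.4, 19.8, 21.5 and 24.1 CPM in number 3, against 38.7 to 167 CPM (median 63.1), a log2 difference of -1.57 (SE 0.19). JDP2, CEBPB and CEBPG, dimer partners or relatives of ATF4, differed by -1.58, -1.48 and -1.01 on the log2 scale. In GENCODE release 29 DDIT3 shares 27.2% of its exon bases with MARS on the opposite strand and CEBPB 11.8% with its antisense RNA, and the strand setting of the counting is not given, so reads of such pairs cannot be told apart.

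The 5 genes that feed back on the response or restrain growth fell by a median of 2.07 on the log2 scale. CHAC1, which breaks down glutathione, had 10.2, 20.8, 6.50, 8.68 and 14.5 CPM in number 3, against 36.7 to 98.9 CPM (median 74.6). That was 6.10-fold lower in number 3 (log2 difference -2.61, SE 0.17, edgeR adjusted p = 1.3e-07). SESN2 and DDIT4 encode inhibitors of the mTORC1 growth kinase. SESN2 had 18.9, 28.7, 16.4, 17.8 and 25.3 CPM in number 3, against 49.0 to 149.9 CPM (median 89.3), and was 4.21-fold lower. DDIT4 had 110.1, 214, 81.5, 96.6 and 142 CPM in number 3, against 339 to 714 CPM (median 548), and was 4.23-fold lower; 41.2% of its exon bases overlap an antisense RNA. The other 2 differed less. PPP1R15A, the GADD34 subunit that removes phosphate from eIF2alpha, differed by -0.87, and EIF4EBP1, which holds back cap-dependent translation, by -0.68 on the log2 scale.

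The 10 enzymes of serine, one-carbon and amino acid synthesis had a median of -1.12, and all 10 fell. ASNS, asparagine synthetase and a classic ATF4 target, had 128, 192, 96.8, 112 and 149 CPM in number 3, against 359.7 to 758 CPM (median 543). It was 4.13-fold lower in number 3 (log2 difference -2.05, SE 0.12, edgeR adjusted p = 1.12e-07), with the caution that 44.6% of its exon bases are shared with a non-coding transcript on the same strand. CTH, which makes cysteine from cystathionine, had 12.2, 18.3, 10.9, 11.2 and 12.9 CPM in number 3, against 24.7 to 84.5 CPM (median 48.6), and was 3.92-fold lower. PCK2, the mitochondrial PEP carboxykinase, differed by -1.81 on the log2 scale. The 3 steps from glycolysis to serine differed unequally: PSAT1, the aminotransferase, by -1.49, PHGDH, the first enzyme, by -0.97 and PSPH, the phosphatase, by -0.94. SHMT2 and MTHFD2, which pass the serine carbon into mitochondrial folate, differed by -1.12 and -1.11. MTHFD2 shares 27.2% of its exon bases with SLC4A5 on the opposite strand. CBS had 168, 167, 149, 141 and 166 CPM in number 3, against 156 to 297 CPM (median 228), and was 1.46-fold lower. ALDH1L2 had 0.489, 0.383, 0.430, 0.486 and 0.391 CPM in number 3, against 0.252 to 1.48 CPM (median 1.03), with KO library 2 the lowest of all 15.

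All 8 amino acid transporters fell, by a median of 1.04 on the log2 scale. SLC6A9, a glycine transporter, had 12.6, 26.5, 10.8, 11.1 and 16.0 CPM in number 3, against 44.1 to 151 CPM (median 90.2). It was 6.20-fold lower in number 3 (log2 difference -2.63, SE 0.15, edgeR adjusted p = 1.12e-07), the widest gap of any member but FGF21. SLC7A11, the cystine carrier of system xc-, had 81.9, 146, 62.8, 64.7 and 102 CPM in number 3, against 243 to 594 CPM (median 390.2), and was 4.56-fold lower. SLC1A4, a carrier of alanine, serine and cysteine, differed by -1.48. SLC7A5, the carrier of large neutral amino acids, differed by -1.09. SLC3A2, the heavy chain that SLC7A5 and SLC7A11 share, had 272, 346, 269, 248 and 265 CPM in number 3, against 359.6 to 884 CPM (median 519). SLC38A2, SLC1A5 and SLC7A1, carriers of small neutral amino acids, glutamine and cationic amino acids, differed by -0.80, -0.71 and -0.69. Of the exon bases of SLC1A5, 23.4% overlap an antisense RNA.

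The 11 genes of tRNA charging and export had the smallest median, -0.81, and all 11 fell. GARS, the glycyl-tRNA synthetase, led with -1.38 (SE 0.09), followed by SARS with -1.14. AARS, WARS, YARS and MARS differed by -0.96, -0.95, -0.92 and -0.81 on the log2 scale. XPOT, which exports tRNA from the nucleus, differed by -0.79, and TARS, EPRS, IARS and NARS by -0.76, -0.67, -0.62 and -0.60. Of the 5 roles with more than 3 members, this one had the narrowest spread.

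The 3 secreted factors differed by a median of -1.84, and all 3 fell. GDF15, a cytokine that acts on appetite and that the prostate makes in quantity, had 181, 429.5, 100.2, 113 and 261 CPM in number 3, against 349 to 971 CPM (median 788). It was 3.59-fold lower in number 3 (log2 difference -1.84, SE 0.18, edgeR adjusted p = 2.1e-06), and KO_S47A library 3 lay above both KO libraries numbered 1 and 2. FGF21 had 0.255, 0.686, 0.0195, 0.0935 and 0.391 CPM in number 3, against 1.37 to 6.98 CPM (median 3.57). These rest on 12, 34, 1, 5 and 20 counts in number 3 and 76 to 379 counts in numbers 1 and 2. The fitted log2 difference was -3.82 (SE 0.34, edgeR adjusted p = 1.28e-06). STC2, a secreted glycoprotein, differed by -1.47 (SE 0.12).

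**Figure D2:**
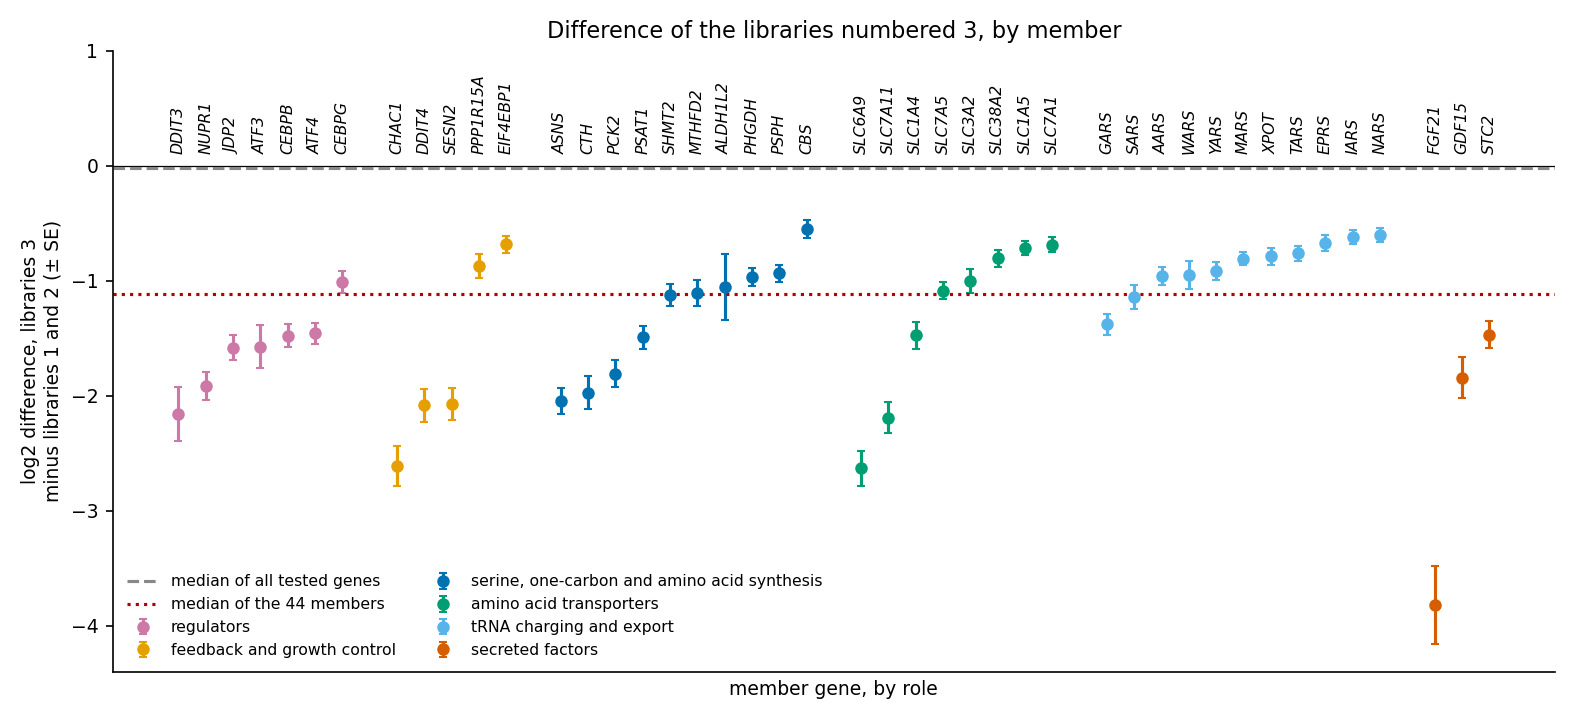
Log2 difference of the libraries numbered 3 from those numbered 1 and 2 for each of the 44 members, with bars of 1 SE, members grouped by role (colour), and lines at the medians of the members (-1.12) and of all tested genes (-0.02). Every point lies below 0, and they run from FGF21 at -3.82 to CBS at -0.55.

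The difference of library 3 was present in each line taken alone, in 1 model in which the lines shared the spread (5 residual degrees of freedom) while the single library numbered 3 of a line was assumed to vary like the others. By edgeR adjusted p, 42 members were lower in KO_WT (5.73% of all tested genes were called lower), 43 in KO_S47A (9.19%), 43 in KO_S404A (8.26%), 21 in KO (0.421%) and 36 in Scramble (1.2%). ATF4 differed by -1.65 in KO_WT, -1.38 in KO_S47A, -1.80 in KO_S404A, -1.21 in KO and -1.28 in Scramble. The member medians were -1.32, -1.35, -1.39, -0.75 and -0.93 in the same order. ALDH1L2 was the sole member not called in KO_S47A and in KO_S404A, and in KO_WT it was joined by CBS.

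Whether these differences were unequal among lines was tested as an interaction of line with number 3. No member was called, and 0% of tested genes were, while 21 members had an unadjusted edgeR p under 0.05, against 5.25% of tested genes. The outcome rested on the KO_S404A libraries. Without KO_S404A library 2, 29 members were called (4.77% of genes), and without KO_S404A library 1, 19 (2.78%). Leaving out any of the 8 other libraries that could be left out gave 0 members.

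Between lines, with 1 mean per line and no term for library number, no member was called in any of the 7 comparisons. By edgeR adjusted p, 2.69% of all tested genes were called in KO against Scramble, 0.0281% in KO_WT against KO, 0.00702% in KO_S47A against KO and 0.0211% in KO_S404A against KO. Among the add-back lines the shares were 0% for KO_WT against KO_S47A, 0% for KO_S404A against KO_WT and 0.00702% for KO_S404A against KO_S47A. At an unadjusted edgeR p under 0.05, 5 members passed in KO_S47A against KO, where 16.8% of tested genes did, and 0 in the other 6. There the shares of tested genes were 12.8% for KO against Scramble, 7.58% for KO_WT against KO, 4.08% for KO_S404A against KO, 2.17% for KO_WT against KO_S47A, 8.7% for KO_S404A against KO_WT and 6.59% for KO_S404A against KO_S47A. DESeq2 also called 0 members in each, with 7 at an unadjusted p under 0.05 in KO_S47A against KO, where 18.6% of tested genes passed, and 0 elsewhere. Its adjusted calls over tested genes were 4.86% for KO against Scramble, 0.0562% for KO_WT against KO, 0.232% for KO_S47A against KO, 0.0562% for KO_S404A against KO, 0.0281% for KO_WT against KO_S47A, 0% for KO_S404A against KO_WT and 0.014% for KO_S404A against KO_S47A. Without a term for number, the library 3 difference sits in the spread within each line, as ATF4 shows. ATF4 averaged 1013 ± 516 CPM in KO_WT, 1184 ± 529 in KO_S47A, 933 ± 527 in KO_S404A, 697 ± 283 in KO and 1088 ± 469.8 in Scramble (SD, n = 3 libraries each).

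**Figure D3:**
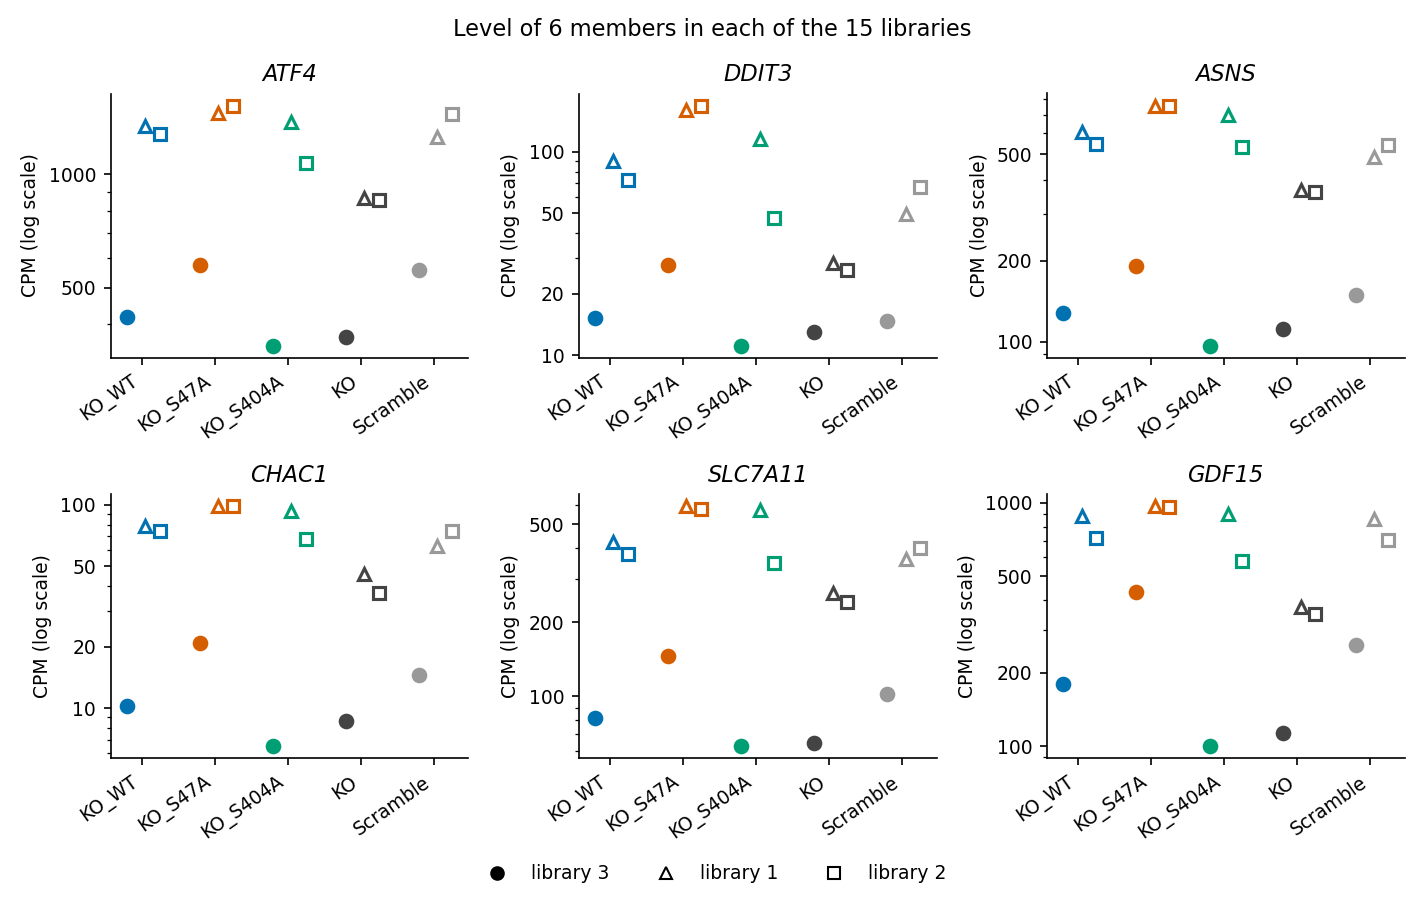
CPM (log axis) of ATF4, DDIT3, ASNS, CHAC1, SLC7A11 and GDF15 in each library, by line from KO_WT to Scramble, with libraries numbered 3 and those numbered 1 and 2 marked apart. In each panel the library numbered 3 is the lowest of its line, and among libraries numbered 1 and 2 those of KO_S47A are the 2 highest and those of KO the 2 lowest.

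With library number in the model, which the pairing of same-numbered libraries allowed for this comparison, 39 of 44 members rose in KO_S47A against KO. Over all tested genes 22.1% were called and 10.6% were called higher. The member median was 0.70, against 0.00 over all genes, and every member was above 0. With libraries numbered 1 and 2 alone 43 members were called higher, against 10.7% of genes. Both KO_S47A libraries numbered 1 and 2 lay above both KO ones for all 44 members, a pattern that 33.7% of tested genes showed. Leaving out KO_S47A library 2 left 25 members called, against 1.78% of genes called higher, and no other single library brought the count below 28, the count without KO library 1 (3.87% of genes) or KO library 2 (4.77%). PNPLA2 messenger RNA also differed between these lines, as given above.

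By role, all 7 regulators rose in KO_S47A against KO (median 0.73). ATF4 had 1454, 1523 and 574 CPM in KO_S47A libraries 1, 2 and 3, against 866, 854 and 371 CPM in KO. Its log2 difference was 0.73 (SE 0.12, edgeR adjusted p = 0.00398 with number in the model). DDIT3 had 161, 169 and 27.7 CPM in KO_S47A, against 28.4, 26.3 and 12.9 CPM in KO, a log2 difference of 2.07 (SE 0.33, edgeR adjusted p = 0.00331). The CHOP gene was thus the regulator that differed most, and ATF3 followed with 146, 167 and 34.4 CPM in KO_S47A, against 43.8, 38.7 and 21.5 CPM in KO (log2 difference 1.53). NUPR1, CEBPB, JDP2 and CEBPG rose by 0.94, 0.73, 0.59 and 0.57 on the log2 scale.

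Of the feedback and growth genes 4 of 5 rose (median 1.07). CHAC1 had 98.5, 98.9 and 20.8 CPM in KO_S47A, against 45.8, 36.7 and 8.68 CPM in KO, a log2 difference of 1.27 (SE 0.23, edgeR adjusted p = 0.00424). SESN2, DDIT4 and PPP1R15A rose by 1.18, 1.07 and 0.93. EIF4EBP1 did not pass (log2 difference 0.23, edgeR adjusted p = 0.126). Among the synthesis genes 9 of 10 rose (median 0.68). ASNS had 758, 755 and 192 CPM in KO_S47A, against 368, 359.7 and 112 CPM in KO, a log2 difference of 0.96 (SE 0.16, edgeR adjusted p = 0.00361). CTH and PCK2 rose by 1.30 and 1.01, MTHFD2, PSAT1, SHMT2 and CBS by 0.68, 0.67, 0.63 and 0.61, and PSPH and PHGDH by 0.49 and 0.41. ALDH1L2, at few counts, had a log2 difference of 0.96 that did not pass (edgeR adjusted p = 0.105).

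All 8 transporters rose (median 0.78). SLC6A9 had 143, 151 and 26.5 CPM in KO_S47A, against 55.9, 44.1 and 11.1 CPM in KO, a log2 difference of 1.47 (SE 0.20) and, at 0.00246, the smallest edgeR adjusted p of any member. SLC7A11 had 594, 576 and 146 CPM in KO_S47A, against 263, 243 and 64.7 CPM in KO, a log2 difference of 1.20 (SE 0.18, edgeR adjusted p = 0.00277). Its partner SLC3A2 had 880.1, 884 and 346 CPM in KO_S47A, against 359.6, 363 and 248 CPM in KO (log2 difference 1.01). The cystine carrier and its heavy chain were therefore both higher, within every library number. SLC1A4, SLC38A2, SLC7A1, SLC1A5 and SLC7A5 rose by 0.91, 0.66, 0.52, 0.42 and 0.36.

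Genes of tRNA charging differed least, and 8 of 11 rose (median 0.31). SARS and WARS each rose by 0.72, GARS by 0.51, AARS by 0.42, XPOT by 0.35, MARS by 0.31, TARS by 0.28 and IARS by 0.26. YARS, EPRS and NARS, with 0.27, 0.26 and 0.20, did not pass (edgeR adjusted p = 0.0849, 0.0739 and 0.124). All 3 secreted factors rose. GDF15 had 971, 962 and 429.5 CPM in KO_S47A, against 375, 349 and 113 CPM in KO, a log2 difference of 1.62 (SE 0.24, edgeR adjusted p = 0.00295). FGF21 had 6.47, 6.98 and 0.686 CPM in KO_S47A, against 2.08, 1.37 and 0.0935 CPM in KO, a log2 difference of 2.14 (SE 0.42, edgeR adjusted p = 0.00528). STC2 rose by 0.92.

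In KO against Scramble, number in the model gave 4 lower members, ATF4, GDF15, SLC1A4 and SLC7A11, and 0 higher. Calls covered 8.29% of all tested genes and lower calls 5.01%, so 4 of 44 is near the background. The member median was -0.31, and 42 of 44 were below 0 in the test without number (median -0.34). ATF4 had 866, 854 and 371 CPM in KO libraries 1, 2 and 3, against 1259.8, 1448 and 557 CPM in Scramble, a log2 difference of -0.63 (SE 0.12, edgeR adjusted p = 0.00493 with number, 0.742 without). Tested genes of chromosome 22, which carries ATF4, had a median of -0.32 in this comparison over 375 genes, against 0.03 for the genes elsewhere, and the part of this in the ATF4 difference was not tested. GDF15 had 375, 349 and 113 CPM in KO, against 860.0, 703 and 261 CPM in Scramble, a log2 difference of -1.14 (SE 0.24, edgeR adjusted p = 0.0077). SLC1A4 had 26.7, 22.9 and 12.0 CPM in KO, against 44.6, 48.2 and 19.0 CPM in Scramble, a log2 difference of -0.83 (SE 0.16, edgeR adjusted p = 0.00417). In all 3 genes each KO library lay below the Scramble library of the same number. SLC7A11 had 263, 243 and 64.7 CPM in KO, against 361, 402 and 102 CPM in Scramble (log2 difference -0.62, SE 0.18, edgeR adjusted p = 0.0404).

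This count of 4 moved with single libraries. It was 19 without KO library 3, where 5.27% of genes were called lower, 15 without KO_S404A library 1 (6.01%), 10 without KO_S404A library 3 (4.66%) and 9 without Scramble library 1 (3.83%). It was 7 without KO_S404A library 2 (5.8%) or KO_S47A library 3 (5.64%). With libraries numbered 1 and 2 alone it was 8, against 3.39% of genes called lower. Across libraries numbered 1 and 2, both KO libraries lay below all 8 others for 36 members, against 7.45% of tested genes, and both KO_S47A libraries lay above all 8 others for 31 members, against 9.42%.

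Adding back wild-type ATGL or S404A gave values above KO that did not pass edgeR's test with all 15 libraries. KO_WT minus KO had a median of 0.46 with all 44 members above 0 in the fit without number, whereas the KO_S47A median above is from the model with number. With number in the model edgeR called 0 members, where 0.105% of genes were called. At an unadjusted edgeR p under 0.05 with number in the model 27 members passed, against 23.3% of genes, and DESeq2 with number called 10, against 7.12%. ATF4 had 1343, 1278 and 419 CPM in KO_WT libraries 1, 2 and 3, against 866, 854 and 371 CPM in KO. Its log2 difference with number in the model was 0.46 (95% interval 0.18 to 0.75, edgeR adjusted p = 0.0944). The count was 21 without KO library 3, where 3.51% of genes were called higher, 18 without KO_S404A library 1 (2.94%), 3 without KO_S404A library 2 (1.78%) and 1 without KO_S404A library 3 (0.083%). With libraries numbered 1 and 2 alone it was 3, against 0.209% of genes called higher. KO_S404A minus KO likewise had a median of 0.46 with 44 members above 0, again without number. ATF4 had 1378, 1069 and 351 CPM in KO_S404A, against 866, 854 and 371 CPM in KO. Its log2 difference without number was 0.42 (95% interval -0.84 to 1.67, edgeR adjusted p = 0.901). With number in the model, though these libraries were not treated as paired, it was 0.32 (95% interval 0.03 to 0.60, edgeR adjusted p = 0.219). With libraries numbered 1 and 2 alone 26 members were called higher in KO_S404A, against 1.54% of genes.

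These 4 comparisons with KO share its libraries. Within library numbers the median of KO_WT minus KO was 0.58 in number 1, 0.50 in number 2 and 0.03 in number 3. That of KO_S404A minus KO was 0.69, 0.51 and -0.10, and that of KO_S47A minus KO 0.85, 0.92 and 0.40. In number 3, 25 members lay above KO in KO_WT, 10 in KO_S404A and 40 in KO_S47A. Of all tested genes 45.6%, 49.6% and 49.0% did so in the same order. KO minus Scramble had medians of -0.28, -0.43 and -0.19, with 39, 41 and 41 members below 0. Of all tested genes 53.7%, 52.1% and 53.0% lay above 0 there. KO was the lowest of the 5 lines for 38 members in number 1, 41 in number 2 and 7 in number 3, where KO_S404A was lowest for 26. KO_S47A was the highest line for 37, 41 and 32 members. The shares of all tested genes with these line ranks are not reported here.

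**Figure D4:**
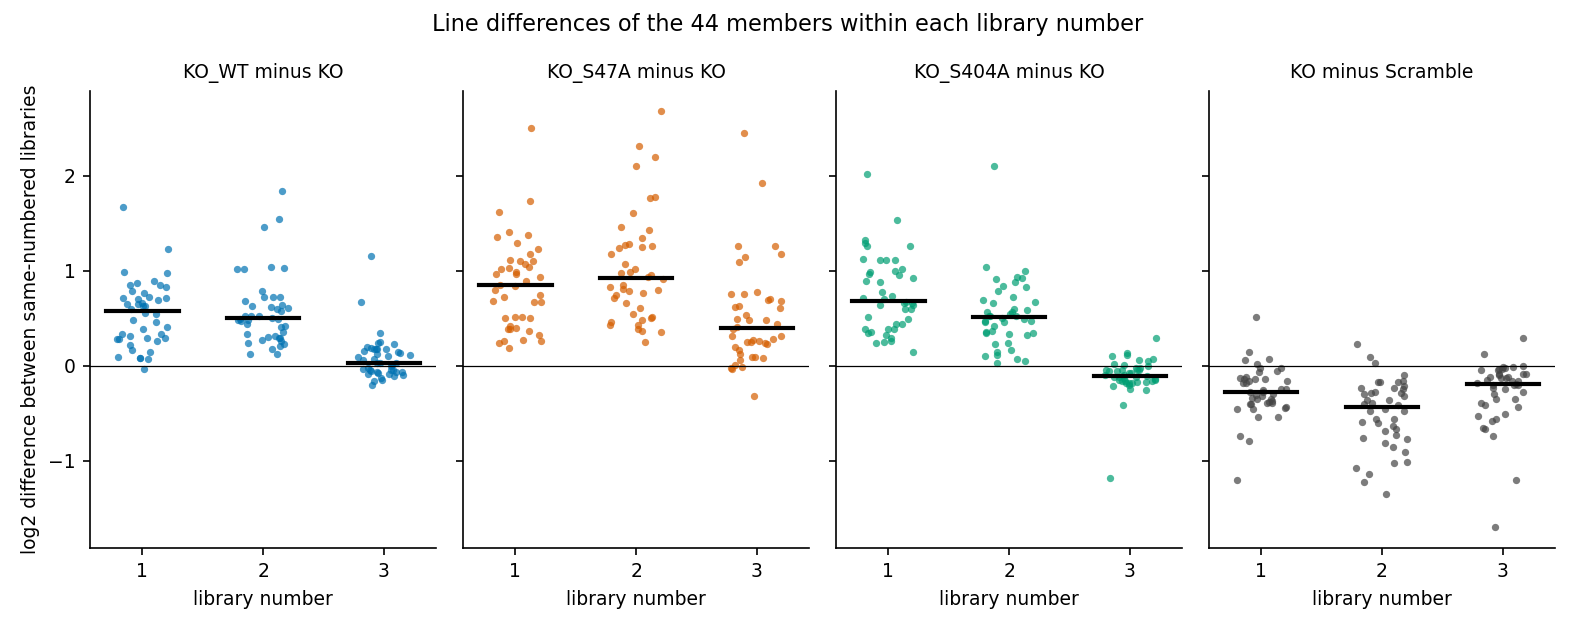
Log2 difference (vertical axis) of KO_WT, KO_S47A and KO_S404A from KO, and of KO from Scramble, between libraries of the same number (1, 2 and 3 from left to right), with 1 point per member and a bar at the median of the 44. The points of KO_S47A minus KO stay above 0 in nearly all cases, while those of KO_WT minus KO and KO_S404A minus KO centre on 0.03 and -0.10 in number 3.

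Among the 3 add-back lines edgeR called no member with number in the model. The medians and the counts above or below 0 that follow are from the fit without number. Counts of members called or passing unadjusted are from the fit with number. KO_WT minus KO_S47A had a median of -0.32 with all 44 members below 0 (0.0211% of genes called with number). At an unadjusted p 30 members passed, against 9.29% of genes, and DESeq2 with number called 0 (0.105% of genes). KO_S404A minus KO_WT had a median of 0.10 with 31 members above 0 (0% called), with 4 members passing unadjusted (17.3% of genes) and 0 by DESeq2 (0.218%). With number in the model ASNS, CHAC1, FGF21 and JDP2 went from above to below 0 (log2 differences -0.04, -0.09, -0.11 and -0.04), so the signs were more mixed. KO_S404A minus KO_S47A had a median of -0.28 with 42 below 0 (0.014% called), with 27 passing unadjusted (19.7%) and 1 by DESeq2 (0.344%). The wild-type and S47A proteins differ in the catalytic serine, and DDIT3 had 90.7, 72.7 and 15.2 CPM in KO_WT libraries 1, 2 and 3, against 161, 169 and 27.7 CPM in KO_S47A. Its log2 difference with number in the model was -0.99 (95% interval -1.70 to -0.27, edgeR adjusted p = 0.44). ATF4 differed by -0.27 in the same comparison (95% interval -0.56 to 0.01, edgeR adjusted p = 0.528). For KO_S404A against KO_WT the ATF4 difference was -0.15 (95% interval -0.43 to 0.14, edgeR adjusted p = 0.552). Without KO_S404A library 1, 26 members were called in KO_S404A against KO_S47A (6.89% of genes called lower) and 1 in KO_S404A against KO_WT (1.93%). Without KO_S47A library 3, 1 was called in KO_WT against KO_S47A (0.255%). Across all 5 lines at once, with number in the model, 33 of 44 members differed among lines, against 22.9% of genes. The 11 others were 8 of the 11 tRNA genes (XPOT, GARS, MARS, NARS, EPRS, IARS, TARS and YARS) with PHGDH, ALDH1L2 and EIF4EBP1.

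Other genes near the pathway were compared by messenger RNA level, which does not show which of its branches was active. In number 3, 45.3% of all tested genes were called and 23.1% were called lower. In KO_S47A against KO, with number in the model, 22.1% were called and 10.6% were called higher. Of 25 further ATF4 targets, 18 fell and 1 rose in libraries numbered 3 (median -0.67). They were led by INHBE, an activin subunit, with -2.56, RAB39B, a small GTPase, also with -2.56, and ADM2, a secreted peptide, with -2.06 on the log2 scale. RAB39B had 0.955 ± 1.77 CPM in number 3 and 4.05 ± 5.02 CPM in numbers 1 and 2 (SD, n = 5 and 10 libraries), a spread as wide as its level. In KO_S47A against KO, with number in the model, 16 of the 25 rose and 2 fell (median 0.63). The sensors and the eIF2 machinery differed less, with 4 of 18 higher and 8 lower in number 3 (median -0.09). Their 3 widest differences were KIAA0141, which relays mitochondrial stress, with -0.55, the kinase EIF2AK3 (PERK) with -0.54 and IMPACT, which restrains the kinase GCN2, with -0.42. In KO_S47A against KO 2 rose and 2 fell.

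Related enzymes and transporters that were not members had calls in both directions, to be read beside the shares of all tested genes. In number 3, 45.3% of all tested genes were called and 23.1% were called lower. In KO_S47A against KO, with number in the model, 22.1% were called and 10.6% were called higher. The lists overlap: CARS, LARS, SLC6A6, SLC38A1, SLC43A1 and SLC36A1 also stand in the list of further ATF4 targets. TYMS also stands in the list of proliferation genes. Of 10 further cytosolic tRNA synthetases 4 rose and 3 fell in number 3 (median 0.10), with CARS at -1.32, FARSB at 0.36 and LARS at -0.29. Of 17 mitochondrial synthetases 2 rose and 5 fell (median 0.01), with MARS2 at 0.36, WARS2 at -0.25 and PARS2 at -0.23. Of 10 other folate genes 6 rose and 3 fell (median 0.24). There MTHFD1L, the mitochondrial partner of MTHFD2, differed by -1.04, while TYMS, thymidylate synthase, differed by 0.87. Of 14 further amino acid transporters that were tested 5 rose and 3 fell (median -0.08). The glutamate carrier SLC1A3 rose by 1.04 and SLC6A6, a taurine carrier, by 0.60, and SLC38A5, at 0.153 ± 0.119 CPM in number 3 and 0.268 ± 0.156 CPM in numbers 1 and 2, did not pass (edgeR adjusted p = 0.124). In KO_S47A against KO, with number in the model, 1 cytosolic synthetase rose and 2 fell, 0 mitochondrial ones rose and 2 fell, 1 folate gene rose and 5 fell, and 2 transporters rose and 5 fell. Luminal markers had 2 higher and 2 lower of 10 in number 3, with STEAP2 at -0.54 and KLK3 at 0.34. Of the 6 markers of other cell types that were tested 2 rose and 1 fell, with COL3A1, at under 1.1 CPM in every library, at 1.47, VWF at -0.84 and SYP, which did not pass, at -0.24.

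With number 3 and in KO_S47A against KO, endoplasmic reticulum chaperones moved in the members' direction and cell division genes in the opposite one. Of all tested genes 45.3% were called in number 3 (23.1% lower). With number in the model 22.1% were called in KO_S47A against KO (10.6% higher) and 8.29% in KO against Scramble (5.01% lower). All 30 proliferation genes were higher in number 3 (median 0.97), led by the cyclin CCNE2 with 1.48, the ribonucleotide reductase subunit RRM2 with 1.30 and the cyclin CCNA2 with 1.19. Their summed level was 6033 to 7365 CPM in number 3 and 2511 to 5177 CPM in numbers 1 and 2, while that of the members was 7029 to 9295 CPM in number 3 and 12495 to 22028 CPM in numbers 1 and 2. Neither pair of ranges overlapped. In KO_S47A against KO, with number in the model, all 30 fell (median -0.84), and in KO against Scramble 1 rose. Of 20 chaperones and related genes 17 fell and 0 rose in number 3 (median -0.54), led by HERPUD1 with -1.98 and DNAJB9 with -1.58, both parts of the machinery that clears misfolded protein, and SEL1L with -0.87. All 20 rose in KO_S47A against KO (median 0.89), and 5 fell in KO against Scramble (median -0.44). The part of cell division or of chaperone demand in the members' differences was not tested. In bulk RNA fewer cells with a response and less RNA per cell cannot be told apart.

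**Figure D5:**
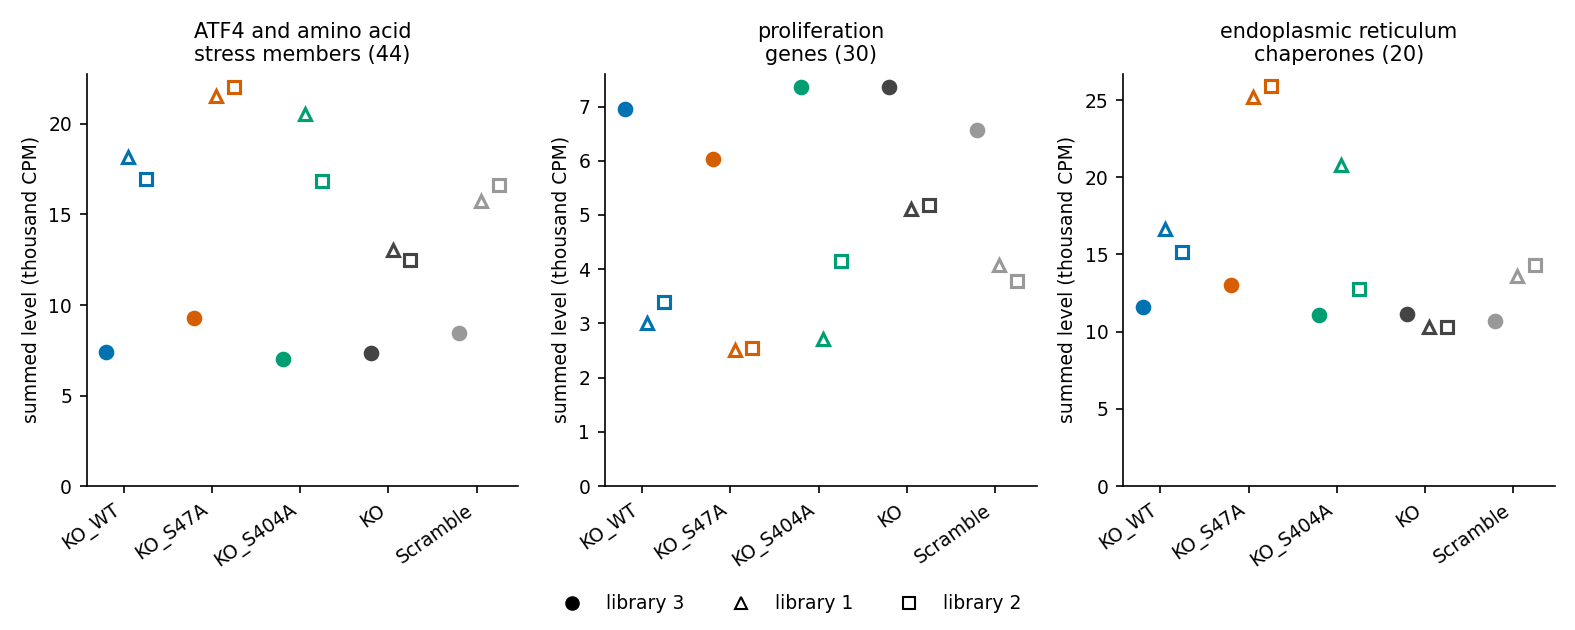
Summed level (CPM, on an axis marked in multiples of 1000) of the 44 members, of 30 proliferation genes and of 20 endoplasmic reticulum chaperones in each library, by line from KO_WT to Scramble, with the libraries numbered 3 marked. Member sums in number 3 (7029 to 9295 CPM) lie below all others and proliferation sums in number 3 (6033 to 7365 CPM) above all others, while chaperone sums overlap, since KO had 11135 CPM in number 3 and 10276 and 10299 CPM in numbers 1 and 2.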

How the data were processed

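The authors deposited for each of the 15 libraries a table of read counts per gene and of FPKM. The counts are whole numbers, not normalized. From the deposited FPKM values only the implied gene lengths were taken, and a gene's implied length varied between libraries by a relative 9.52e-14 at most. The submitters' processing notes name CASAVA and STAR, with no version; genome build, annotation and strand setting of the counting were not given in the sources used here. Per the labels' protocols, poly(A) RNA and a directional kit were used. The 5 entries of unassigned reads, 13.2% to 20.6% of a library, entered neither the library sizes nor the tests.

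Counts were tested in R 4.3.3 with edgeR 4.0.16 (filterByExpr, TMM, quasi-likelihood F test) on all 15 libraries and 14246 genes, with Benjamini-Hochberg adjustment over all of them and a call at 0.05. Lines were compared with 1 mean per line (10 residual degrees of freedom) or with library number as a block (8). Number 3 was set against the mean of numbers 1 and 2 with line in the model, a contrast chosen with earlier results of these data known. The SE is approximate (absolute log2 difference over the root of F), and 95% intervals rest on it. Levels are TMM-scaled CPM. Differences within a number used log2 CPM with a prior count of 2. At this depth counting error is small beside the spread between libraries for all members but FGF21 and ALDH1L2. Scripts were tested on simulated data.

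Same-numbered libraries deviated together from their line means, with every pair's correlation across genes above 0.1, in 6 of the 7 line comparisons (lowest 0.126 in KO against Scramble, 0.142 in KO_WT against KO, 0.150 in KO_S47A against KO, 0.271 in KO_WT against KO_S47A, 0.192 in KO_S404A against KO_WT and 0.195 in KO_S404A against KO_S47A). In KO_S404A against KO the lowest was 0.0197, so those libraries were not treated as paired. The correlations set number 3 apart but did not tell number 1 from number 2: KO library 1 correlated at 0.206 with KO_S47A library 1 and at 0.228 with KO_S47A library 2. The pairing comes from these correlations, since the labels give the numbers without their meaning.

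The members and all gene lists were chosen with earlier results of these data known, and lists were described by counts and medians with no test of a list. Named with values are ATF4, every member called in a line comparison with or without the block, the 10 members with the widest number 3 difference, the highest and lowest member per kilobase in each role and the 3 widest tested genes of each other list; the remaining members are named with their differences. A few non-member genes that this rule takes are not reported here. Promoters came from a RefSeq table (GRCh38.p14), and overlaps with neighbouring genes from GENCODE release 29, used only to see which genes overlap. Among the members 16 share exon bases with another annotated gene, 6 of them over 10%. Alternatives were RLE size factors, DESeq2 1.42.0, no filter on low counts, only the lines compared, libraries numbered 1 and 2 only, and leaving out each library or line in turn.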

Additional observations from a re-analysis of the deposited data

How the results depend on the processing

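For the lower level in number 3, all 44 members were called under RLE size factors, DESeq2, no filter, line left out of the model, number 3 against 1 or against 2 alone and with each library left out in turn (44 to 44). With KO_S47A left out ALDH1L2 alone was lost (edgeR adjusted p = 0.0541, 43 members), and within KO alone 21 members were called. The shorter core TGATGNA was found for 17 of 37 members and 7.87% of tested genes.

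Between lines, RLE size factors, DESeq2, no filter and a fit of only the 2 lines compared all gave 0 members, as did leaving out libraries without the block. Adding library number changed the calls. With the replicate block 4 members were called in KO against Scramble, 39 in KO_S47A against KO and 0 in the 5 other comparisons, KO_S404A against KO included, whose libraries were not paired and where 31 members had an unadjusted edgeR p under 0.05, against 16.7% of genes. In edgeR the block changed the members' count in no other line comparison. DESeq2 with the replicate block, chosen after seeing the data, called 11 in KO against Scramble (7.34% of genes called lower), 10 in KO_WT against KO (7.12% called), 40 in KO_S47A against KO (12.6% called higher), 13 in KO_S404A against KO (1.57% called higher), 1 in KO_S404A against KO_S47A (0.344% called) and 0 in the other 2. Libraries numbered 1 and 2 alone gave 8 in KO against Scramble, 3 in KO_WT against KO, 43 in KO_S47A against KO and 26 in KO_S404A against KO.

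Without the block, leaving out single libraries gave 0 members in every line comparison. With the block, leaving out each library gave 3 to 19 in KO against Scramble, 0 to 21 in KO_WT against KO and 25 to 42 in KO_S47A against KO. It gave 0 to 15 in KO_S404A against KO (15 without KO library 3, with 1.62% of genes called higher, and 8 without KO_S404A library 3, with 0.201%). Among the add-back lines it gave 0 to 26 in KO_S404A against KO_S47A, 0 to 1 in KO_S404A against KO_WT and 0 to 1 in KO_WT against KO_S47A. The interaction of line with number 3 gave 0 to 29. The causes of these shifts were not tested. For ALDH1L2 within KO the number 3 difference was -0.01 in the edgeR fit and 0.14 on the log2 CPM scale. Precision is limited by 3 libraries a line and 1 numbered 3 in each, and for FGF21 and ALDH1L2 by depth.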
